A study of Mus musculus with 10 samples.

Results

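The genes of the MHC class II pathway were examined in lung tissue of mice with and without Bpifb1, a gene for a secreted protein of the airways. The set holds 9 genes, taken by symbol and matched to the deposited table by GENCODE M21 gene identifier, out of 47333 genes in the table. It comprises the chains of the peptide-presenting molecules (H2-Aa, H2-Ab1 and H2-Eb1), the invariant chain (Cd74), the DM peptide editor (H2-DMa and H2-DMb1), the DO modulator of DM (H2-Oa and H2-Ob) and the transactivator Ciita. RNA from the right middle lobe was sequenced for 10 naïve, untreated C57BL/6J mice aged 12 weeks, 1 library per mouse. The KO group had 1 male and 4 females, and the WT group had 2 males and 3 females. Mice of the KO and WT genotypes shared cages, and how the KO allele was made is not given in the sources used here. The sexes are therefore unequal between the genotypes, and the KO group has a single male.

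Class II molecules present peptides from endocytosed proteins to CD4+ T cells. The alpha and beta chains assemble in the endoplasmic reticulum with the invariant chain Cd74, which blocks the groove and guides the complex to endosomes. There Cd74 is degraded to a short fragment, DM exchanges this fragment for other peptides, and DO, which is made mainly by B cells, binds DM and restrains it. Ciita does not bind DNA itself. It is recruited to class II promoters by factors assembled on an X box and a Y box, which are bound by the RFX complex and by NF-Y. In the lung, class II is made by dendritic cells, B cells and macrophages, and alveolar type 2 epithelial cells also carry it.

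The promoter stretches that carry the X and Y box letters are shown because these letters are the DNA feature through which Ciita acts. RefSeq promoter windows on GRCm38.p6, each running from 250 bases before to 50 bases after a start site, were matched for 6 of the 9 genes. H2-Ab1, Cd74 and Ciita were not matched. Each stretch reads 5′ to 3′ on the gene's own strand, and capitals mark the letters searched. For H2-Eb1 (chr17:34305753-34305827, plus strand), H2-DMb1 (chr17:34153074-34153149, plus), H2-Ob (chr17:34238795-34238867, plus) and the DM beta copy H2-DMb2 (chr17:34145103-34145178, plus), the capitals are the X box letters AACNNATGATG followed by GATTGG, the Y box read on this strand.
H2-Eb1: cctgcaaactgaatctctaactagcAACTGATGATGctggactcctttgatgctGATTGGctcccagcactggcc
H2-DMb1: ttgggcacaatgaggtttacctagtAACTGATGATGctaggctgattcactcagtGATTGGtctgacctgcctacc
H2-Ob: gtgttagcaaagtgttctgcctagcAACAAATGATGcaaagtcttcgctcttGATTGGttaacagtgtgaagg
H2-DMb2: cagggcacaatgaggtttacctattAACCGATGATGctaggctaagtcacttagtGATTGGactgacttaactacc

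For H2-Aa (chr17:34287852-34287929, minus strand) and H2-Oa (chr17:34092278-34092355, plus), the capitals are the shorter letters GCAAC followed by GATTGG.
H2-Aa: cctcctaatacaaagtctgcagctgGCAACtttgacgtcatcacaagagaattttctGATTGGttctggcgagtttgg
H2-Oa: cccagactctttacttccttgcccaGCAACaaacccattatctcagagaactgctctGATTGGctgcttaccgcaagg

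From the first letter of AACNNATGATG to the first letter of GATTGG, the distance was 27 bases in H2-Ob, 29 in H2-Eb1, and 30 in H2-DMb1 and H2-DMb2. From the first letter of GCAAC to that of GATTGG it was 32 in H2-Aa and H2-Oa. GCAAC starts before its letters AAC, so these distances cannot be compared directly with those from AACNNATGATG. Among 32851 RefSeq windows of this length, AACNNATGATG was found on either strand in 45 (0.137%), GATTGG in 5292 (16.1%) and GCAAC in 11566 (35.2%). The pair of AACNNATGATG and GATTGG on the same strand, 20 to 40 bases apart from start to start, was found in 4 windows (0.0122%), and these were H2-Eb1, H2-DMb1, H2-Ob and H2-DMb2. The pair of GCAAC and GATTGG at the same distance was found in 120 windows (0.365%), which included H2-Aa, H2-Oa, H2-Eb1, H2-Ob and the beta chain gene H2-Eb2. Where both motifs are present, the last letters of GCAAC are the first letters of AACNNATGATG. Neither of the 2 H2-DMa windows held either pair. The longer motif holds the letters shared by these 4 class II windows, with N where they differ, so the shares describe how rare the letters are and test nothing. RefSeq start sites differ in places from the GENCODE M21 genes used for the counts. The H2-DMb1 and H2-DMb2 stretches lie inside the GENCODE spans of these genes (chr17:34153072-34160230 and chr17:34143307-34151555). The H2-Oa stretch lies partly inside its span (chr17:34092340-34095234).

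Total estimated counts ran from 21357424 to 28321294 per library, with 24026 to 25135 genes at 1 count or more, so that 3 counts correspond to between 0.106 and 0.14 CPM (counts scaled to the library size). Bpifb1 had 5 to 32 counts in the KO libraries and 647 to 2059 in the WT libraries. KO replicate 5, labelled female, had Xist at 1.80 CPM, while the other 6 females had 275 to 408 CPM and the 3 males 1.22 to 1.75 CPM. Its counts of the Y-linked genes Ddx3y, Eif2s3y, Kdm5d and Uty were all 0, as against 317 to 1611 in the males, so its low Xist goes against the label and its Y-linked counts do not. All 9 genes of the alveolar type 2 list, among them the surfactant gene Sftpc, were detected in every library.

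Per length, Cd74 led the 9 genes and the DO genes and Ciita came last. On the scale of CPM per kilobase of the principal transcript, Cd74 was highest at 1152 ± 108 (SD, n = 10 mice). It was followed by H2-Aa at 423 ± 45.8, H2-Ab1 at 394.5 ± 31.8 and H2-Eb1 at 241 ± 21.7. The DM chains lay well below these, with H2-DMb1 at 47.5 ± 4.87 and H2-DMa at 35.5 ± 3.40. H2-Ob at 9.67 ± 1.78, Ciita at 6.56 ± 0.589 and H2-Oa at 6.45 ± 1.33 were lowest.

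Cd74 exceeded the next gene, H2-Aa, 2.73-fold, and their ranges over the mice did not overlap. H2-Aa and H2-Ab1 were not separated beyond their spread (1.07-fold, H2-Aa higher in 9 of 10 mice). The step from H2-Eb1 to H2-DMb1 was 5.07-fold and the step from H2-DMa to H2-Ob was 3.71-fold, both without overlap. H2-DMb1 was above H2-DMa 1.34-fold in 10 of 10 mice, although their ranges over all mice overlapped. Ciita and H2-Oa could not be ordered (1.03-fold, Ciita higher in 5 of 10 mice). When the union of all annotated exons was used as the length, Cd74 and the DM chains kept their places, but the order within the classical chains became H2-Eb1, H2-Ab1, H2-Aa and the last 3 became H2-Oa, H2-Ob, Ciita. That length was chosen after the data were seen.

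**Figure D1:**
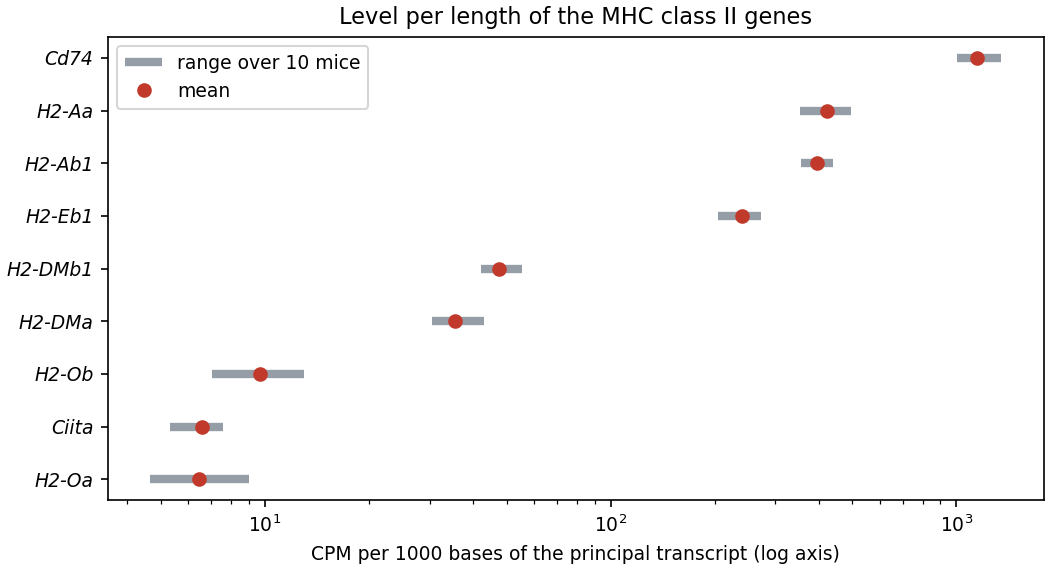
Level of each MHC class II gene as CPM per kilobase of the principal transcript, on a log axis. Points are means over the 10 mice and bars the range from the lowest to the highest mouse. Cd74 at 1152 is highest, and H2-Ob, Ciita and H2-Oa lie between 6.45 and 9.67.

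By mean CPM without regard to length, Cd74 ranked 34 of 18024 genes tested, and H2-Ab1, H2-Aa and H2-Eb1 ranked 202, 204 and 268. The DO genes were the most variable. Across the 10 mice the coefficient of variation was 20.6% for H2-Oa and 18.4% for H2-Ob, where counting error alone would give 7.63% and 3.98%. The other 7 genes varied by 8.05% to 10.8%, near the median of 10.56% over all genes tested.

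No MHC class II gene passed the test between the genotypes. With the edgeR quasi-likelihood test and Benjamini-Hochberg adjustment over 18024 genes, 0 of 9 had an adjusted p under 0.05, against a background of 4 genes (0.0222%). At an unadjusted p under 0.05 there were 2 of 9, H2-Aa and H2-Oa, against 17% of all genes. Both were lower in KO, a direction in which 8.04% of all genes passed the same mark. H2-Aa lay close to the mark, with an unadjusted edgeR p of 0.0491. Its unadjusted edgeR p was 0.178 among females alone and 0.0034 to 0.211 when 1 mouse was left out. DESeq2 also called 0 of 9, against 346 of 18024 genes, with 2 members at an unadjusted p under 0.05. For limma-voom 0 of 9 were called, against 2 of 18024 genes, with 1 member at that mark. The share of all genes at the unadjusted mark was not computed for these 2 tests. The fitted log2 fold change was below 0 for 8 of 9 genes, against 50.7% of all genes, and its median was -0.12, against -0.0027 for all genes. Such counts are not of independent genes, because most of the 9 rose and fell together across the mice. Where values are lower in these libraries of undivided lung tissue, fewer cells of a type and less RNA per cell cannot be told apart. The p-values rest on the spread between 5 separate mice per genotype.

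H2-Aa encodes the alpha chain of the I-A molecule (ENSMUSG00000036594, GRCm38 chr17:34282744-34287823, minus strand). Its levels were 399, 476, 473, 488 and 428 CPM in KO replicates 1 to 5, and 558, 536, 447, 529.5 and 435 CPM in WT replicates 1 to 5. WT replicates 1, 2 and 4 lay above every KO mouse, while WT replicates 3 and 5 fell among the KO values. The means were 453 ± 37.5 CPM in KO and 501 ± 56.1 CPM in WT (SD, n = 5 mice each). edgeR put KO minus WT at -0.17 log2 with an SE of 0.08 (adjusted p = 0.293).

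H2-Ab1 encodes the beta chain that pairs with H2-Aa (ENSMUSG00000073421, chr17:34257689-34269419, plus strand). Its levels were 432, 458, 477, 496 and 454 CPM in KO replicates 1 to 5, and 532, 527, 448, 521 and 435 CPM in WT replicates 1 to 5. The same 3 WT mice stood above all KO mice, and the groups overlapped. KO minus WT was -0.10 log2 with an SE of 0.07 (edgeR adjusted p = 0.467), which within 2 SE allows anything from -0.24 to 0.04.

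H2-Eb1 encodes the beta chain of I-E (ENSMUSG00000060586, chr17:34305867-34316674, plus strand). It ran from 342 to 408 CPM in KO and from 369 to 455 CPM in WT, a difference of -0.13 log2 with an SE of 0.07 (edgeR adjusted p = 0.358). Its partner gene in this strain, H2-Ea-ps, is annotated as a polymorphic pseudogene. It had 0 counts in 9 libraries and 1 count in KO replicate 4, and was not tested. H2-Eb2, another beta chain gene, was at 1.81 to 3.14 CPM over all mice, and its KO minus WT was -0.08 log2 with an SE of 0.15 (edgeR adjusted p = 0.825).

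Cd74, the invariant chain, lies outside the MHC region (ENSMUSG00000024610, chr18:60803848-60812652, plus strand). Its levels were 1414.5, 1607, 1579, 1661 and 1544 CPM in KO replicates 1 to 5, and 1771, 1903, 1588, 1751 and 1428 CPM in WT replicates 1 to 5. WT replicates 1, 2 and 4 were again above all KO mice, and WT replicate 5 was close to the lowest KO mouse. On the log2 scale KO minus WT was -0.12 with an SE of 0.08 (edgeR adjusted p = 0.471). It was -0.046 without KO replicate 1 and -0.19 without WT replicate 5.

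H2-DMa and H2-DMb1 encode the chains of DM (ENSMUSG00000037649, chr17:34119541-34139101, and ENSMUSG00000079547, chr17:34153072-34160230, both plus strand). H2-DMa ran from 55.4 to 60.3 CPM in KO and from 50.6 to 71.4 CPM in WT, so that all KO values lay inside the WT range (KO minus WT -0.07 log2, SE 0.08, edgeR adjusted p = 0.661, and 0.0051 log2 without WT replicate 1). H2-DMb1 ran from 59.4 to 69.3 CPM in KO and from 59.3 to 78.1 CPM in WT (KO minus WT -0.12 log2, SE 0.08, edgeR adjusted p = 0.466). The DM beta copy H2-DMb2 was at 19.8 to 31.7 CPM over all mice (KO minus WT -0.08 log2, SE 0.12, edgeR adjusted p = 0.764). Of the 50-base stretches of H2-DMb1 transcripts, 369 of 1355 (27.2%) also occur in H2-DMb2, so the split of estimated counts between these copies is uncertain. None of the 50-base stretches of the other 8 genes occurs in another gene. H2-DMa also overlaps Brd2 on the opposite strand (5790 to 7371 counts), Ciita overlaps Dexi on the opposite strand (482 to 602 counts), and whether the counting used the strand is not given in the sources used here.

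H2-Oa and H2-Ob encode the chains of DO (ENSMUSG00000024334, chr17:34092340-34095234, and ENSMUSG00000041538, chr17:34238903-34254414, both plus strand). H2-Oa was at 5.20, 7.98, 6.46, 5.08 and 7.35 CPM in KO replicates 1 to 5, and 7.94, 6.39, 6.11, 7.90 and 9.77 CPM in WT replicates 1 to 5. H2-Ob was at 18.8, 29.3, 26.9, 22.0 and 30.1 CPM in KO replicates 1 to 5, and 26.1, 20.8, 25.5, 23.9 and 34.7 CPM in WT replicates 1 to 5. WT replicate 5, among the lowest mice for the classical chains, was the highest mouse for both DO genes, and KO replicates 1 and 4 were low for both.

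With sex in the model, H2-Oa had a KO minus WT of -0.32 log2 with an SE of 0.12 (edgeR adjusted p = 0.217), the largest in size among the 9 genes. Its means were 6.41 ± 1.28 CPM in KO and 7.62 ± 1.47 CPM in WT (SD, n = 5 mice each), and the groups overlapped. H2-Ob differed by -0.13 log2 (SE 0.12, edgeR adjusted p = 0.638), with -0.017 without WT replicate 5 and -0.21 without WT replicate 4. The summed CPM of the 10-gene B cell list, a cell type in which DO is known to be made, ran from 171 to 354 in KO and from 216 to 308 in WT.

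Ciita (ENSMUSG00000022504, chr16:10480059-10528418, plus strand) showed the smallest difference. It was at 37.2, 41.1, 39.9, 37.4 and 40.5 CPM in KO replicates 1 to 5, and 38.4, 45.4, 40.7, 41.4 and 31.9 CPM in WT replicates 1 to 5. All KO values lay inside the WT range, and WT replicate 5 was the lowest of the 10 mice. KO minus WT was 0.01 log2 with an SE of 0.08 (edgeR adjusted p = 0.959), which within 2 SE allows -0.15 to 0.17, and the sign turned without KO replicate 2, KO replicate 5 or WT replicate 5 (-0.074 for the last) and without the sex term.

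**Figure D2:**
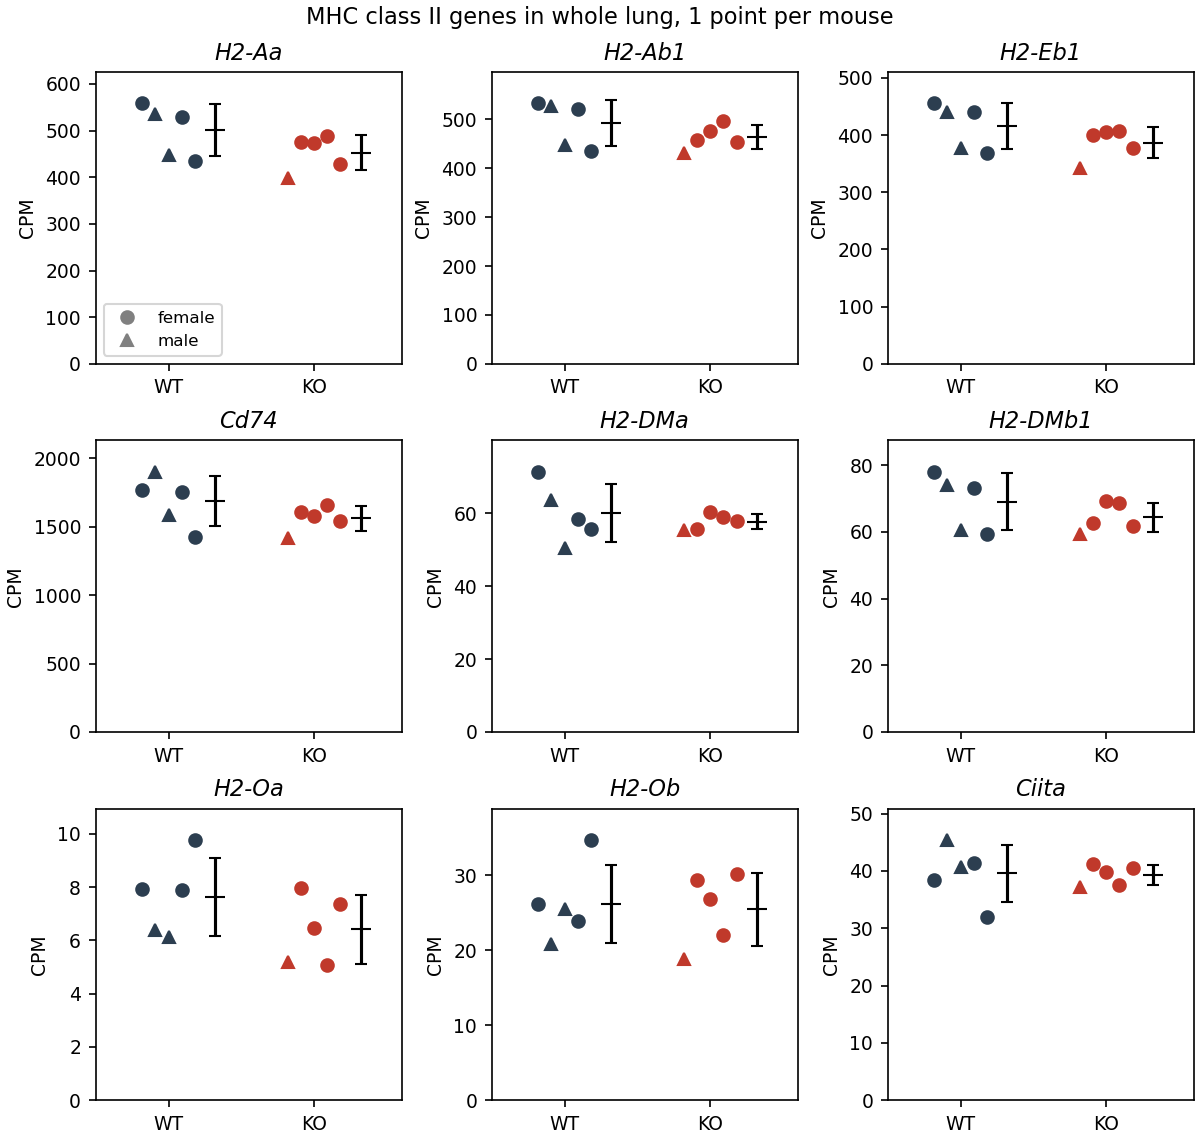
CPM of the 9 MHC class II genes, 1 point per mouse, WT and KO side by side, with circles for females and triangles for males. Horizontal lines are means and bars the SD over 5 mice. KO and WT overlap for every gene, and 3 WT mice lie above all KO mice for H2-Aa, H2-Ab1, H2-Eb1, Cd74 and H2-DMb1.

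For none of the 9 genes did the CPM ranges of KO and WT separate, while they did for 339 of all genes tested (1.88%). WT replicate 5 weighed on the comparison: without it, 5 of 9 genes (H2-Aa, H2-Ab1, H2-Eb1, Cd74 and H2-DMb1) had an unadjusted edgeR p under 0.05, all lower in KO, against 16.1% of all genes in that fit and 7.68% lower. This was the leave-out with the most members at that mark. Leaving out any other single mouse gave 1 or 2 of 9, and females alone gave 1 of 9. The share of all genes was not computed for those other fits. Without WT replicate 5, all 9 fitted values were below 0, against 50.1% of all genes, although the 9 genes are not independent of one another. The median was -0.19, and still 0 of 9 were called (smallest edgeR adjusted p = 0.182). The DO genes moved the other way without that mouse: H2-Oa went from -0.32 to -0.24 log2, no longer at an unadjusted p under 0.05, and H2-Ob went from -0.13 to -0.017 log2. Without the sex term, 0 of 9 had an unadjusted edgeR p under 0.05, and 0 were called, against 4 of 18024 genes. The share of all genes at the unadjusted mark was not computed for that fit. In WT replicate 5 the interstitial macrophage list was lowest of all (135.6 summed CPM) and the T cell list was at 80.5 summed CPM, and their part in the result was not tested.

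Between the sexes no MHC class II gene passed the test either. Of the 9 genes, 0 were called with edgeR, against 105 of 18024 genes (0.583%). At an unadjusted p under 0.05 there were 2, H2-Oa and H2-Ob, both lower in males, against 15.1% of all genes in either direction and 7.79% lower. The fitted difference was below 0 for 8 of 9, which are not independent of one another, against 51.7% of all genes. DESeq2 and limma-voom likewise called 0 of 9, against 436 and 93 of 18024 genes, each with 2 members at an unadjusted p under 0.05. The share of all genes at that unadjusted mark was not computed for these tests. No gene's male and female ranges separated, against 4.81% of all genes.

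H2-Oa was at 5.20 to 6.39 CPM in the 3 males (mean 5.90 ± 0.621) and 5.08 to 9.77 CPM in the 7 females (mean 7.50 ± 1.46), a log2 difference of male minus female of -0.42 (SE 0.13, edgeR adjusted p = 0.161). H2-Ob was at 18.8 to 25.5 CPM in males (mean 21.7 ± 3.44) and 22.0 to 34.7 CPM in females (mean 27.6 ± 4.24), a log2 difference of -0.38 (SE 0.14, edgeR adjusted p = 0.226). Leaving out KO replicate 5, the female with low Xist, gave -0.41 (edgeR adjusted p = 0.219) for H2-Oa and -0.36 (edgeR adjusted p = 0.276) for H2-Ob. The H2-Ob difference leaned more on the males. It was -0.29 without KO replicate 1, the only KO male, and -0.33 without WT replicate 2. In both of these fits H2-Ob no longer met the unadjusted mark, while H2-Oa did. Leaving out WT replicate 3, the remaining male, gave -0.49 for H2-Ob, which still met that mark. The mean log2 CPM of the B cell list was 4.22 in males and 4.42 in females, and that of the T cell list was 2.61 and 2.97. Their part in the DO difference was not tested.

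The remaining 7 genes differed between the sexes by log2 values of -0.12 (H2-Aa) to 0.09 (Ciita), each within 2 SE of 0.

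**Figure D3:**
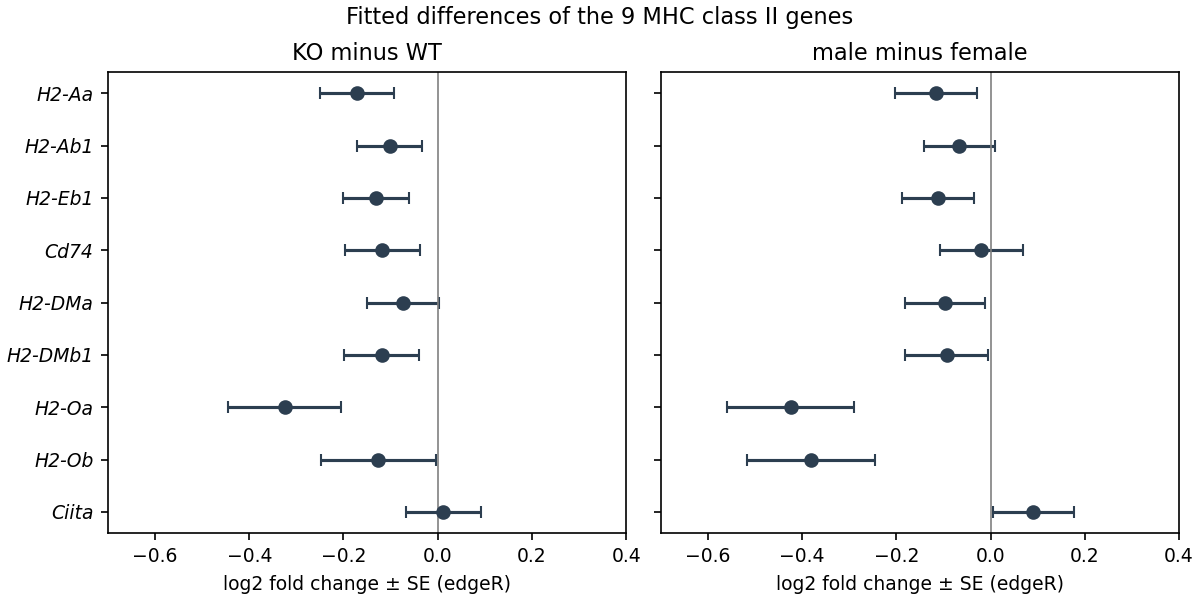
Fitted log2 fold changes of the 9 genes between the genotypes (left) and between the sexes (right), with bars for 1 SE from edgeR. H2-Oa has the largest difference in both panels, at -0.32 and -0.42, and Ciita the only positive one, at 0.01 (-0.0032 to -0.074 when KO replicate 2, KO replicate 5 or WT replicate 5 was left out) and 0.09. None passed the adjusted test.

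Ratios between genes within a mouse compare partners without the library scale. Of 7 ratios tested between genotypes by a two-sided exact permutation test over all splits of the mice, none passed after Benjamini-Hochberg adjustment, where the smallest p possible is 0.007937. H2-Aa to H2-Ab1 was 0.924, 1.04, 0.991, 0.983 and 0.943 in KO replicates 1 to 5 and 0.998 to 1.05 in WT. In 4 of 5 KO mice it lay below every WT mouse, with geometric means of 0.975 in KO and 1.02 in WT (exact permutation p = 0.127, adjusted p = 0.444). The unadjusted exact p was 0.007937 without KO replicate 2, the one KO mouse above 1, and 0.135 to 0.246 without any one of the other 9 mice.

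The ratio of H2-Ob to H2-Oa had geometric means of 3.93 in KO and 3.41 in WT (exact permutation p = 0.0714, adjusted p = 0.444), and the unadjusted exact p was 0.01587 without WT replicate 3 and 0.0556 to 0.159 without any one of the others. H2-Eb1 to H2-Ab1 was 0.833 in KO and 0.845 in WT, and H2-DMb1 to H2-DMa was 1.11 and 1.15. For Cd74 to H2-Ab1 the geometric means were 3.37 and 3.42. For Ciita to H2-Ab1 they were 0.0849 and 0.0802. The summed DO genes relative to the summed DM genes, the modulator relative to its target, ranged from 0.198 in WT replicate 2 to 0.388 in WT replicate 5, and the genotype means were 0.258 in KO and 0.261 in WT (exact permutation p = 0.929, adjusted p = 0.929). On the log2 scale that difference was -0.016 and turned to as much as 0.13 (without WT replicate 5) when 1 mouse was left out.

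Across the mice, 6 of the 9 genes rose and fell together, and the DO genes paired with each other. Of 36 pairs, 15 correlated over the 10 mice after Benjamini-Hochberg adjustment of permutation p-values for Pearson's r of log2 CPM, all of them positive. The 6 genes H2-Aa, H2-Ab1, H2-Eb1, Cd74, H2-DMa and H2-DMb1 gave 14 of these pairs out of 15 among themselves, with r from 0.62 to 0.99 and a median of 0.92. All values of a mouse come from 1 library. The share of passing pairs over all genes was not computed. Among 18023 other genes, 0.0721% had r above 0.9 with H2-Ab1. Pairs with H2-DMa had the lowest r.

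H2-Aa and H2-Eb1 had r = 0.99 (rho = 0.95, permutation p = 1e-05, the smallest 100000 resamples can give, adjusted p = 1.2e-04), and r = 0.98 without the 2 mice farthest from the median of H2-Aa. H2-Ab1 and H2-DMb1 had r = 0.98 (rho = 0.98, permutation p = 1e-05, adjusted p = 1.2e-04, r = 0.97 without 2 mice). H2-Ab1 and H2-DMa had r = 0.79 (rho = 0.90, permutation p = 0.00229, adjusted p = 0.00687), which fell to 0.59 without WT replicates 1 and 2, so this relation leaned on those mice.

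The DO genes formed a pair of their own. H2-Oa and H2-Ob had r = 0.81 (rho = 0.76, permutation p = 0.00548, adjusted p = 0.0152), r = 0.69 without KO replicate 4 and WT replicate 5, and r = 0.76 among the 7 females. With the 6 genes above, the DO genes had r between -0.31 and 0.21, and 0 of 12 pairs passed. Whether these correlations differ from those within the 6 genes was not tested. After the genotype and sex means were removed, 21 of 36 pairs passed, among them all 15 of the first count. The residuals were permuted without allowing for the fitted genotype and sex terms, so their p-values can be too small. In those residuals H2-Ob was negatively related to H2-Ab1 (r = -0.79, adjusted permutation p = 0.0178) and to H2-DMb1 (r = -0.77, adjusted permutation p = 0.0227).

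No pair of Ciita with another MHC class II gene passed over the 10 mice. Its r with the 6 genes ran from 0.18 (H2-DMa) to 0.71 (Cd74), and 0 of 6 pairs passed. For Cd74 the values were rho = 0.62, permutation p = 0.0222, adjusted p = 0.05004 and r = 0.57 without 2 mice. After removal of genotype and sex means, r with Cd74 was 0.85 (adjusted permutation p = 0.00766), and r was 0.80 with H2-Eb1, 0.74 with H2-Aa and 0.70 with H2-Ab1. Here too the p-values of residuals can be too small. With H2-Oa and H2-Ob, Ciita had r = -0.27 and -0.40.

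**Figure D4:**
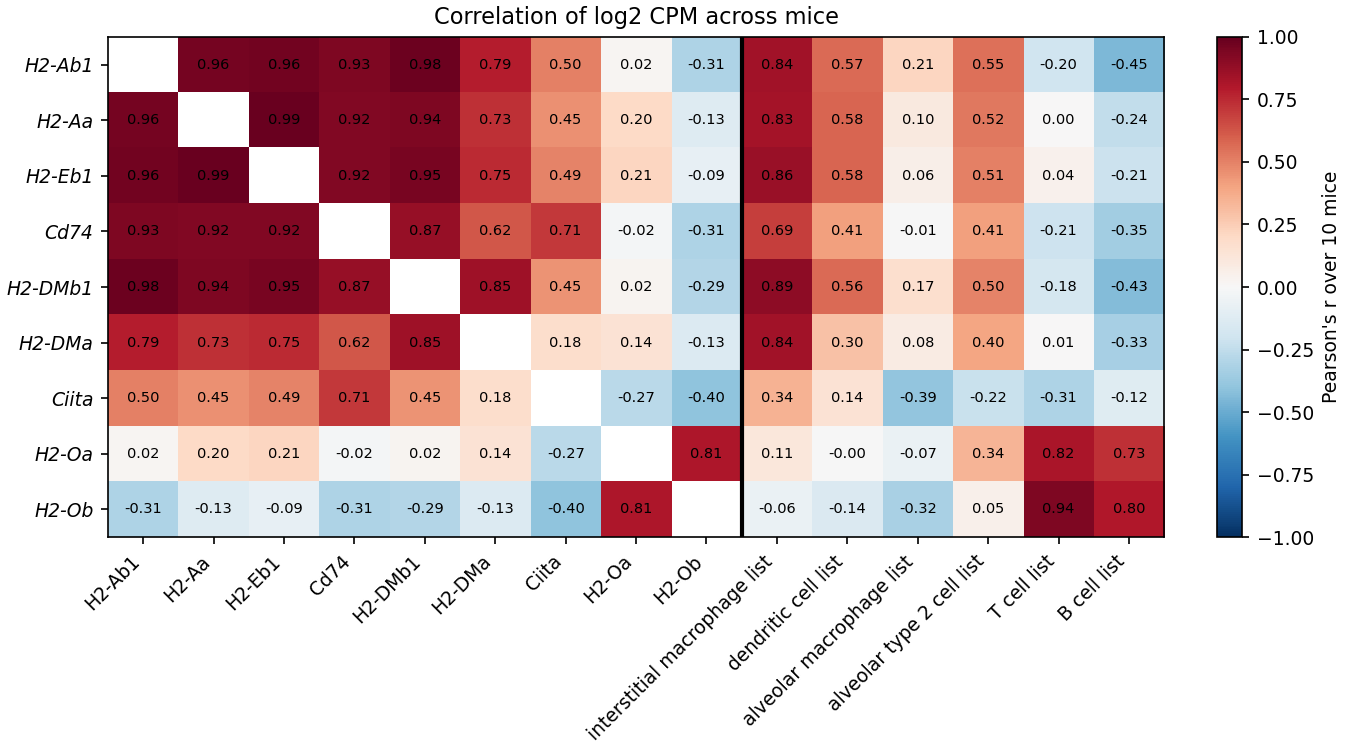
Pearson's r over 10 mice of log2 CPM, for each pair of the 9 genes (left of the line) and for each gene with the mean of 6 cell marker lists (right of the line). The 6 genes from H2-Ab1 to H2-DMa share r from 0.62 to 0.99. H2-Oa and H2-Ob pair with each other and with the T cell list, and H2-Ob pairs with the B cell list. H2-Oa with the B cell list (r = 0.73) did not pass.

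The cell marker lists were compared with the 9 genes over the same mice. Of 54 pairs of a gene with a list, 8 passed. The share of all genes that would pass with these lists was not computed. The interstitial macrophage list (complement C1q genes and other markers, all 6 detected) correlated with 5 genes. Its r was 0.89 with H2-DMb1 (rho = 0.92, permutation p = 1.7e-04, adjusted p = 0.00459) and 0.86 with H2-Eb1, 0.84 with H2-Ab1 and H2-DMa, and 0.83 with H2-Aa (adjusted permutation p-values of 0.0245 to 0.0290). Among the females alone, r for H2-Ab1 was 0.88, and without WT replicates 1 and 5 it was 0.75.

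H2-Ob correlated with the T cell list (r = 0.94, rho = 0.94, permutation p = 1.7e-04, adjusted p = 0.00459, r = 0.96 without 2 mice) and with the B cell list (r = 0.80, rho = 0.89, permutation p = 0.00609, adjusted p = 0.0411, r = 0.94 without KO replicates 2 and 4). H2-Oa correlated with the T cell list (r = 0.82, rho = 0.87, permutation p = 0.00431, adjusted p = 0.0333, r = 0.79 without 2 mice). For H2-Oa and the B cell list r was 0.73 and the pair missed the threshold (adjusted permutation p = 0.0968), but passed after removal of genotype and sex means (r = 0.90, adjusted permutation p = 0.00918). The B and T cell lists were themselves correlated (r = 0.84, rho = 0.88, permutation p = 0.00245, r = 0.86 without 2 mice), and the relation of H2-Ob with one list apart from the other was not tested. For H2-Ab1 and the B cell list r was -0.45. No gene passed with the dendritic cell, alveolar macrophage or alveolar type 2 lists before those means were removed. Afterwards 11 of 54 pairs passed, with p-values of residuals that can be too small, as above. Among them were the first 8, H2-Oa with the B cell list and Cd74 with the interstitial macrophage list (r = 0.80, adjusted permutation p = 0.0454). H2-Ob with the dendritic cell list passed with a negative sign (r = -0.76, adjusted permutation p = 0.0456). Among the females alone the dendritic cell list had r of 0.86 with H2-Aa, H2-Ab1 and H2-Eb1 and 0.91 with Cd74, where all 10 mice gave 0.41 to 0.58. In the same females r was 0.78 with H2-DMb1, 0.36 with H2-DMa, 0.53 with Ciita, -0.38 with H2-Oa and -0.86 with H2-Ob. These values among females carry no test and include KO replicate 5, the female with low Xist.

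**Figure D5:**
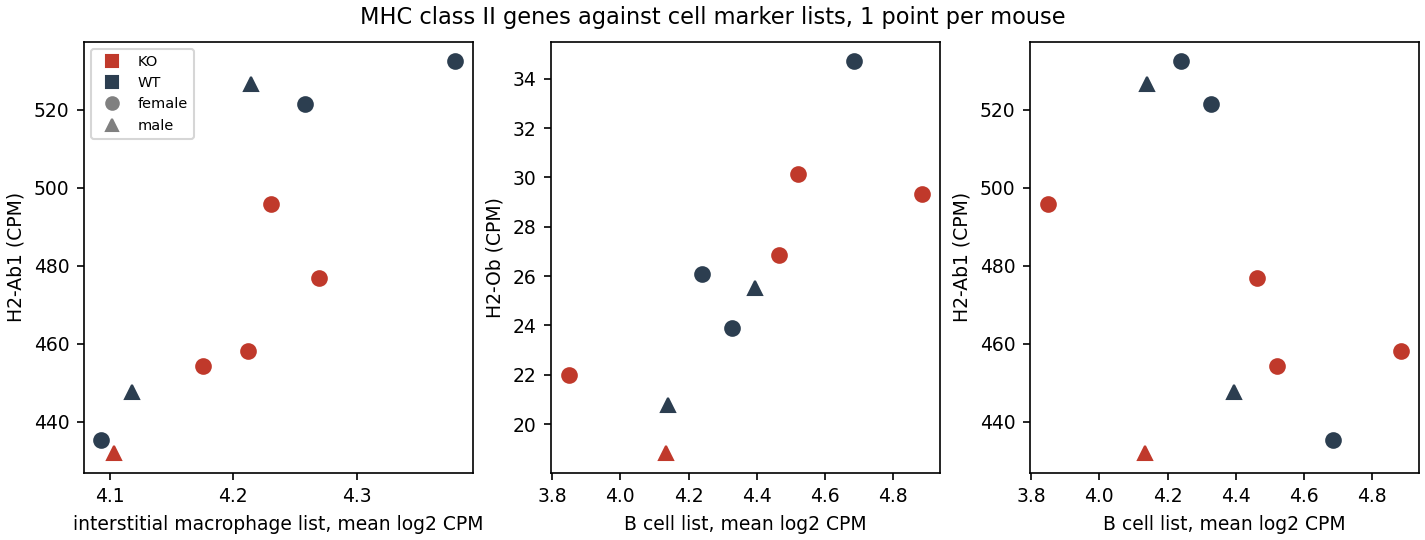
H2-Ab1 against the interstitial macrophage list (left), H2-Ob against the B cell list (middle) and H2-Ab1 against the B cell list (right), 1 point per mouse. Vertical axes are CPM and horizontal axes the mean log2 CPM of the list; neither starts at 0. The first 2 panels have r of 0.84 and 0.80, the last -0.45.

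Between the genotypes the ranges of these lists overlapped. The interstitial macrophage list was at 144 to 156 summed CPM in KO and 136 to 171 in WT, and the T cell list at 51.1 to 82.4 and 57.9 to 80.5. In mean log2 CPM, KO minus WT was 0.01 for the B cell list, 0.00 for dendritic cells, -0.01 for interstitial macrophages, -0.04 for alveolar macrophages, -0.10 for alveolar type 2 cells and 0.02 for T cells. For 8 further lists no correlation with the genes was computed. Their KO minus WT was 0.22 for NK cells, 0.14 for endothelial cells, 0.12 for ciliated cells and 0.07 for fibroblasts. It was 0.00 for monocytes, -0.03 for neutrophils, -0.12 for alveolar type 1 cells and -0.18 for club cells. The part of these lists in the class II values was not tested. No gene of these lists was at 0.

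The genes nearest in pattern, by Pearson's r over the 10 mice among 18023 other genes, differed between H2-Ab1, H2-Ob and Ciita. For H2-Ab1 4 of the first 5 were other class II genes: H2-DMb1 (r = 0.98), H2-Eb1 and H2-Aa (both 0.96) and Cd74 (0.93). The remaining gene was Ap2m1, a subunit of a clathrin adaptor (0.94). For H2-Ob they were the lymphocyte homing receptor Ccr7 (0.95), which also stands in the dendritic cell list, Fasl, the ligand of the death receptor Fas (0.95), Afmid (0.94), Tbc1d10c (0.94) and Kcnmb1 (0.93), while H2-Oa ranked 141. For Ciita they were Cdca4 (0.97), Otud5 (0.95), Anks3 (0.92), Dennd3 (0.92) and Coro2a (0.91), with Cd74 at rank 283. These are descriptions of 10 libraries and carry no test.

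Among genes that act before and after the class II molecules, 0 were called between the genotypes by edgeR in each list. Of 6 peptide-loading and protease genes, 1 had an unadjusted p under 0.05, against 17% of all genes. This was Cd63, a tetraspanin of late endosomes, at 105 ± 7.69 CPM in KO and 115 ± 4.02 CPM in WT (log2 fold change -0.14, edgeR adjusted p = 0.238). Ctss, the protease that trims Cd74, differed by -0.03 (SE 0.07, edgeR adjusted p = 0.883).

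Of 7 class II promoter factors, 1 had an unadjusted p under 0.05, again against 17% of all genes. Creb1, which joins the complex at the X box region, was at 64.9 ± 5.08 CPM in KO and 55.8 ± 7.09 CPM in WT (log2 fold change 0.24, edgeR adjusted p = 0.189). The RFX subunits Rfx5, Rfxap and Rfxank differed by -0.04, 0.02 and 0.00, each within 2 SE of 0. Of 10 genes from interferon gamma to Ciita, 9 were tested, and 1 had an unadjusted p under 0.05, beside the same 17%. This was Spi1, a myeloid and B cell transcription factor (log2 fold change -0.16, edgeR adjusted p = 0.235). Ifng itself had 3 to 12 counts per library and was not tested. Among 3 tested class II turnover genes and 6 costimulatory genes, 0 had an unadjusted p under 0.05, and Il10 was not tested.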

How the data were processed

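Lung RNA was sequenced as 50-base single reads from stranded mRNA libraries, per the labels' protocols. The authors deposited 1 table of estimated counts per gene, not normalized, and FastQC, MultiQC, STAR 2.6.0, Salmon 0.9.1 and the builds mm10 and GRCm38 are named, with no role given, per the submitters' processing notes. Rounding to whole numbers moved 30.1% of nonzero values by over 0.01. Of 47333 identifiers, 52 (0.00668% of counts) did not match GENCODE M21.

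Genes passing filterByExpr (18024) were fitted with the edgeR 4.0.16 quasi-likelihood test, TMM scaling, genotype and sex as additive terms, and Benjamini-Hochberg adjustment over all of them, with calls at an adjusted p under 0.05. CPM are scaled by TMM, and log2 CPM use a prior count of 2. DESeq2 1.42.0 and limma 3.58.1 (voom) were alternatives, beside other filters, scalings and leaving out each mouse. Ratios were tested by exact permutation, and correlations by 100000 permutations. Residuals after genotype and sex were permuted without allowing for the fitted terms. Marker lists are the mean log2 CPM of their genes, each with a mean CPM of 1 or more. The fit was tested on simulated data.

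The members and lists were chosen with earlier results of these data known. The text names the 9 members, the other class II chains, up to 4 genes per pathway list with the smallest unadjusted genotype p under 0.05, and the 5 genes nearest in pattern to H2-Ab1, H2-Ob and Ciita. Rfx5, Rfxap, Rfxank, Ctss, Ifng and Il10 are named beside them as parts of their lists, chosen after their values were seen, as were the genes named in the closing section. The promoter letters, exon-union lengths, the sum of H2-DMb1 and H2-DMb2 and the correlations of H2-DMb2 were also chosen after the data were seen. Labels give no batch.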

Additional observations from a re-analysis of the deposited data

How the results depend on the processing

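Under the 18 other settings between genotypes, 0 of 9 MHC class II genes were called, with a smallest edgeR adjusted p of 0.177 (H2-Oa without WT replicate 4). The count of genes called over the whole table was 4, and became 50 with no filter on low counts, 346 with the DESeq2 Wald test, 2 with limma-voom, 57 at an adjusted p under 0.1, 2 when changes under 1 on the log2 scale were set aside, and 2 to 18 when 1 mouse was left out. The cause was not tested. Leaving out 1 mouse turned the direction of 4 values. The KO-minus-WT log2 fold change ranged from -0.12 to 0.0051 for H2-DMa (0.0051 without WT replicate 1) and from -0.074 to 0.096 for Ciita (below 0 without KO replicate 2, KO replicate 5 or WT replicate 5, and -0.0098 with no sex term). The male-minus-female value of Cd74 ranged from -0.11 to 0.081 (above 0 without KO replicate 1, WT replicate 1 or WT replicate 3, and 0.013 with no genotype term). The KO-minus-WT log2 ratio ranged from -0.081 to -0.039 for H2-Aa to H2-Ab1 and from 0.16 to 0.27 for H2-Ob to H2-Oa. For the summed DO to the summed DM genes it ranged from -0.12 to 0.13 (above 0 without KO replicate 1, KO replicate 4, WT replicate 3 or WT replicate 5), and for Cd74 to H2-Ab1 it was 0.030 among females alone. Between the sexes the count of genes called was 105, and became 197 with no filter on low counts, 436 with the DESeq2 Wald test, 41 with no genotype term, and 0 (without KO replicate 1) to 195 (without WT replicate 4) when 1 mouse was left out. The smallest edgeR adjusted p of a member there was 0.0925 (H2-Oa without KO replicate 4). With H2-DMb1 and H2-DMb2 summed, KO minus WT was -0.11 (edgeR adjusted p = 0.332). No paired analysis was possible because replicate numbers follow accession order and the labels pair no mice. H2-Oa, with 117 to 283 counts per library, was the member most limited by depth. Dixon's test of single mice in 44 sets of values found 0, where chance gives about 2.2.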

Other observations

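MHC class I genes, which present peptides from inside the cell to CD8+ T cells, were measured as a neighbouring pathway. Of 10 genes, 0 were called between the genotypes with edgeR (0.0222% of all genes) and 1 had an unadjusted p under 0.05 (17% of all genes). This was the immunoproteasome subunit Psmb9, at 37.1 ± 4.68 CPM in KO and 40.7 ± 5.54 CPM in WT (SD, n = 5 mice each, log2 fold change -0.19, edgeR adjusted p = 0.235). Of the 10, 8 had a value below 0 in KO minus WT (50.7% of all genes), with a median log2 fold change of -0.08, against -0.12 for the 9 MHC class II genes and -0.0027 for all genes. Between the sexes, 4 of 10 were lower in males at an unadjusted p under 0.05 (Tap1, Psmb8, Psmb9 and Psmb10), against 7.79% of all genes, and 0 were called, against 0.583%. Whether the 10 genes vary independently of one another was not tested, so neither count can be read as one of independent genes. Psmb9 had the male-minus-female value of -0.29 (edgeR adjusted p = 0.141). Irf8, a transcription factor of B cells and dendritic cells, had a male-minus-female value of -0.25 log2 that did not pass the test (edgeR adjusted p = 0.0996).

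H2-DMb2, the copy next to H2-DMb1, was compared with H2-Ob, H2-DMb1 and 3 marker lists. Over the 10 mice it had r = 0.92 with H2-Ob (rho = 0.90, permutation p = 2.7e-04, adjusted p = 4.5e-04 over 5 relations, r = 0.92 without 2 mice) and r = -0.28 with H2-DMb1 (adjusted permutation p = 0.533). With the B cell list it had r = 0.94 (rho = 0.92, permutation p = 2e-05, adjusted p = 1e-04, r = 0.91 without 2 mice), with the T cell list r = 0.93 (rho = 0.96, permutation p = 1.5e-04, adjusted p = 3.75e-04, r = 0.90 without 2 mice), and with the interstitial macrophage list r = -0.01. These relations were chosen after the values were seen. H2-DMb1 and H2-DMb2 share 369 stretches of 50 bases, and both promoters hold the AACNNATGATG and GATTGG letters 30 bases apart.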
